A study of Homo sapiens with 10 samples.

Results

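The transcription factors that pattern the anterior neural plate were followed in human embryonic stem cells (hESC): OTX2, OTX1, LHX5, LHX2, FEZF1, SIX3, HESX1, RAX and PAX6. The 9 genes were picked by symbol and matched through their Ensembl identifiers to rows of the gene count table, with no threshold on the measured values. All 9 were among its 55841 gene identifiers, and 6 of them were among the 23552 genes that passed a filter on low counts. RNA sequencing covered 10 bulk libraries of an hESC line that the labels call HES9, grown in mTeSR1 medium on Matrigel. In 5 libraries the cells came from the nonsorted culture (general population). In the other 5 they had been sorted for high levels of the surface antigens GCTM-2, CD9 and EPCAM, the fraction called HHH.

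Both populations were present in batch 1, with 2 libraries each, and in batch 2, with 3 libraries each. All libraries came from 1 cell line, no other genotype or treatment separated the groups in the labels, and the general population also contained the cells that the sort selected. The labels do not say whether replicates were separate cultures, so the p-values measure the spread between these libraries, which may be partly technical. Library totals ranged from 47242595 to 78503395 counts. Of 2 sort antigens, the EPCAM transcript was higher in HHH by 0.41 on the log2 scale (SE 0.081, adjusted p = 0.00645, edgeR quasi-likelihood test). CD9 (0.29, SE 0.12, adjusted p = 0.195, edgeR) did not pass: it was at 105 and 85.6 CPM in general and 99.2 and 79.1 CPM in HHH in batch 1, and at 51.7 to 57.9 and 71.3 to 89.3 CPM in batch 2. Of 10 pluripotency markers, POU5F1 and NANOG among them, 10 were tested and 0 changed by more than 1.5-fold with an adjusted p below 0.05. By edgeR, 2 of them had an adjusted p below 0.05 at a smaller fold, in opposite directions. NANOG was higher in HHH by 0.44 on the log2 scale (SE 0.084, adjusted p = 0.00572, edgeR). SOX2 was lower by 0.26 (SE 0.068, adjusted p = 0.0375, edgeR). Levels below are in CPM, each gene's counts relative to the library total after TMM scaling (trimmed mean of M values), and fold changes compare HHH with general with batch as a term.

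The anterior neural plate gives rise to the forebrain and the eyes. OTX2 and OTX1 are homeodomain proteins of the orthodenticle family that set up the forebrain and midbrain, and OTX2 is also expressed in primed pluripotent cells. LHX5 and LHX2 are LIM homeodomain proteins, which work with LDB co-factors, while FEZF1 is a zinc finger repressor of the prospective forebrain and SIX3 and HESX1 are homeodomain repressors of its most anterior part. RAX and PAX6 belong to the eye field, and PAX6 also marks the neural plate formed from human pluripotent cells.

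On GRCh38, with GENCODE 44, the 9 genes lie on 8 chromosomes. OTX2 (ENSG00000165588) occupies chr14:56799905-56816693 on the minus strand, FEZF1 (ENSG00000128610) chr7:122301303-122310691 on the minus strand, and HESX1 (ENSG00000163666) chr3:57197838-57227606 on the minus strand. LHX5 (ENSG00000089116) is at chr12:113462033-113472280 on the minus strand and SIX3 (ENSG00000138083) at chr2:44941702-44946071 on the plus strand. OTX1 (ENSG00000115507) is on the same chromosome as SIX3 at chr2:63050057-63057836, LHX2 (ENSG00000106689) at chr9:124001670-124033301, RAX (ENSG00000134438) at chr18:59267035-59274086 and PAX6 (ENSG00000007372) at chr11:31784779-31817961. The submitters' processing notes name GRCh37, so these positions locate the genes but were not used for the counts.

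RefSeq promoter windows (GRCh38.p14) were found for 7 of the 9 genes, 18 windows in all, since several genes have more than 1 start. LHX5 and SIX3 had none in the table. The 250 bases before the start are shown for OTX2, FEZF1 and HESX1, whose transcripts fell together in HHH, and for OTX1, the close relative of OTX2 whose transcript did not pass the test. Each sequence is the window at the start of the gene's main (MANE Select) transcript, written 5′ to 3′ on the gene's strand. Capitals mark TAATTA, a core site of many homeodomain proteins.
OTX2 (chr14:56810480-56810729, minus strand): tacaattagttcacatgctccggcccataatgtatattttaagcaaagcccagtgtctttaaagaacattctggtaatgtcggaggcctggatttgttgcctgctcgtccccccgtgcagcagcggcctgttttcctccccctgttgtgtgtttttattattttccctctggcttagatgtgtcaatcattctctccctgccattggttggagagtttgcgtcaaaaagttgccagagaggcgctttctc
FEZF1 (chr7:122304751-122305000, minus strand): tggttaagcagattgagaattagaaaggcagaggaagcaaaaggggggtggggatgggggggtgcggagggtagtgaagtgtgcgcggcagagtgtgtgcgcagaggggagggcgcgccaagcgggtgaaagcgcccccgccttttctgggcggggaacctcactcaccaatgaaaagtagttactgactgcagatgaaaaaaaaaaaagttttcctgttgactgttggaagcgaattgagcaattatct
HESX1 (chr3:57199979-57200228, minus strand): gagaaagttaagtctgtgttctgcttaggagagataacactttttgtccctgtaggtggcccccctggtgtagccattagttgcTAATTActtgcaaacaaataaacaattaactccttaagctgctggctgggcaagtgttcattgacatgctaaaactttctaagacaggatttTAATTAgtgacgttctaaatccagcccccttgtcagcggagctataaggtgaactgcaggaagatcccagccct
OTX1 (chr2:63050580-63050829, plus strand): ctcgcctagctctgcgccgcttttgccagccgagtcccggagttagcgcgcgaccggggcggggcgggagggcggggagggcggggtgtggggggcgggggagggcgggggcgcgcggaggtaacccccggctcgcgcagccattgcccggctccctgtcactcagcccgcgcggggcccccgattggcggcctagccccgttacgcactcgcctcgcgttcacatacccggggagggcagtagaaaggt

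Of the 4 windows, the HESX1 window held 2 copies of TAATTA, which reads the same on both strands and was present in 4.35% of all 35116 windows of the table. None of the 18 windows held TAATCC (the core site of OTX proteins, in 5.62% of all windows), CTTTGA (in 11.2%) or ATGCAAAT (the octamer, in 1.63%), read on both strands. The windows differed in CG dinucleotides, with 7 in OTX2, 11 in FEZF1, 2 in HESX1 and 33 in OTX1, against a median of 11 over all windows. HESX1 has a second start 27637 bases away whose window held 35 CG and no TAATTA. These counts describe the letters in the windows and say nothing of binding.

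OTX2, FEZF1, HESX1 and LHX5 were all lower in the sorted fraction. Of the 6 genes that passed the filter, these 4 fell by more than 1.5-fold with an adjusted p below 0.05, and 0 rose. Over all tested genes, 2.34% were called lower and 0.637% higher by the same rule, 2.98% in all (edgeR quasi-likelihood test, Benjamini-Hochberg adjustment over all tested genes). LHX5 passed the filter through its general libraries alone. With replicate number as a block, by which 2.61% of tested genes were called lower, the 4 genes kept their calls. In that block, general batch 1 replicate 1 and HHH batch 1 replicate 3 have no partner and carry no information on population. The median log2 fold change was -1.46 over the 6 genes and 0.016 over all tested genes. Because these are bulk libraries, fewer cells that express a gene and less of its RNA per cell cannot be told apart.

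OTX2 was the most abundant of the 9 transcripts. Its level was 102 and 89.4 CPM in the general libraries of batch 1 and 103, 136 and 117 CPM in those of batch 2. In HHH it was 43.1 and 36.0 CPM in batch 1 and 34.1, 35.6 and 47.0 CPM in batch 2. Every HHH library thus lay below every general library, and the levels of HHH in the 2 batches overlapped. The general libraries averaged 109 ± 17.8 CPM and the HHH libraries 39.1 ± 5.57 CPM (SD, n = 5 each). On the log2 scale OTX2 fell by 1.47 (SE 0.11, adjusted p = 2.44e-06, edgeR), which left 36.0% of the general level. OTX2 transcripts therefore remained plentiful in HHH, with 1574 to 2656 counts in each library.

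FEZF1 was next in abundance. The general libraries held 45.6 and 38.3 CPM in batch 1 and 52.2, 68.2 and 69.5 CPM in batch 2, whereas the HHH libraries held 5.53 and 8.33 CPM in batch 1 and 11.8, 14.1 and 16.8 CPM in batch 2. The populations did not overlap, and both were higher in batch 2. FEZF1 fell by 2.32 on the log2 scale (SE 0.14, adjusted p = 6.09e-07, edgeR), to 20.0% of the general level. Batch 2 exceeded batch 1 by 0.80 on the log2 scale in the same fit (SE 0.14, adjusted p = 4.42e-04), a comparison added after the data had been seen. By this batch comparison 21.5% of tested genes differed by more than 1.5-fold with an adjusted p below 0.05.

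HESX1, a repressor needed for forebrain and pituitary development, was present at 18.0 and 10.9 CPM in the general libraries of batch 1 and at 8.72, 11.6 and 10.8 CPM in those of batch 2. The HHH values were 5.98 and 3.55 CPM in batch 1 and 3.19, 3.56 and 5.41 CPM in batch 2. Again the populations were separate, with the highest HHH library below the lowest general library. HESX1 fell by 1.45 on the log2 scale (SE 0.18, adjusted p = 2.58e-04, edgeR), leaving 36.6% of the general level. Within batch 1 alone, where 2 libraries faced 2, it fell by 1.61 (SE 0.29) and narrowly missed the threshold (adjusted p = 0.0535, edgeR).

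LHX5 showed the widest gap. It was measured at 5.16 and 2.80 CPM in the general libraries of batch 1 and 5.87, 9.88 and 10.4 CPM in those of batch 2, which are 167 to 622 counts. In HHH the values were 0.0643 and 0.366 CPM in batch 1 and 0.103, 0.0519 and 0.141 CPM in batch 2, from 3, 16, 6, 3 and 8 counts. Summed over libraries, 36 counts in HHH stood against 2027 in general. The fitted fall was 5.57 on the log2 scale (SE 0.41, adjusted p = 1.63e-06, edgeR), with 2.10% of the general level left. The size of this fall is less certain than its direction, since HHH libraries were near the limit of 3 counts. Blocking on replicate number gave a log2 fold change of -6.29 (adjusted p = 4.79e-07, edgeR). Leaving out HHH batch 1 replicate 3 gave -6.35 (adjusted p = 6.03e-08, edgeR). The block likewise draws no population difference from this library, so the 2 fits are not separate checks.

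**Figure D1:**
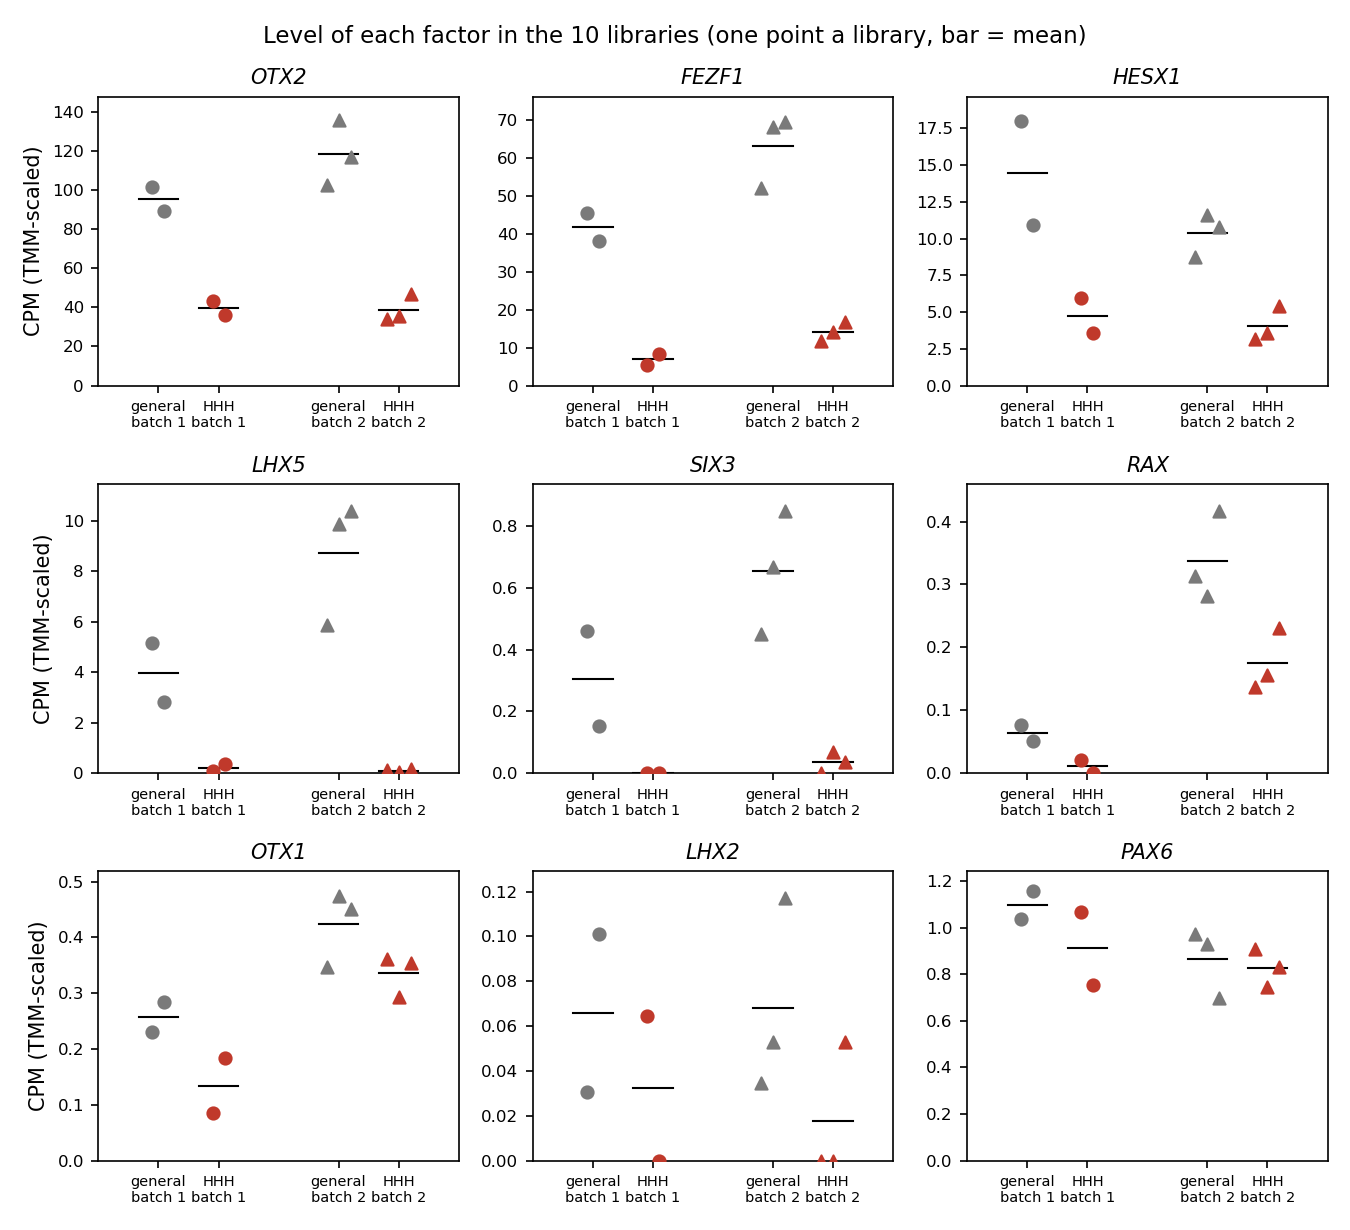
Level of each of the 9 factors in CPM (vertical axes, each starting at 0) in every library, with one point a library, circles for batch 1, triangles for batch 2, grey for general, red for HHH and a bar for the mean of each group. OTX2, FEZF1, HESX1, LHX5 and SIX3 have all 5 HHH libraries below all 5 general libraries, while OTX1, LHX2 and PAX6 overlap. In RAX the populations are separate within each batch but overlap across the batches.

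SIX3, RAX and LHX2 did not pass the filter when both batches were fitted, and their few counts are given as measured. SIX3, a repressor that protects the forebrain from WNT signals, had 30 and 9 counts in the general libraries of batch 1 and 26, 38 and 51 in those of batch 2. The HHH libraries had 0 and 0 counts in batch 1 and 0, 4 and 2 in batch 2. All HHH values were therefore below the lowest general value. With the libraries permuted within batches, the exact two-sided p was 0.0167, the smallest that the 120 arrangements allow. The HHH level was 0.0444 of the general level (exact 95% interval 0.0160 to 0.0988, which covers counting error only), and in batch 1, against the limit of 3 counts per library, it was at least 4.59-fold lower. In batch 2 alone SIX3 passed the filter, through its general libraries only, and fell by 4.17 on the log2 scale (SE 0.53, adjusted p = 2.89e-04, edgeR).

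RAX, the retinal homeobox gene that defines the eye field, had 5 and 3 counts in general and 1 and 0 in HHH of batch 1. In batch 2 it had 18, 16 and 25 counts in general and 8, 9 and 13 in HHH. HHH was thus lower within each batch, but the HHH libraries of batch 2 exceeded the general libraries of batch 1. The exact permutation p within batches was 0.0167, two-sided, and the ratio of HHH to general was 0.527 (exact 95% interval 0.333 to 0.818, counting error only). In batch 2 alone RAX differed by -0.96 on the log2 scale (SE 0.35, adjusted p = 0.0860, edgeR), which did not pass. LHX2, a LIM homeodomain gene of the cortex and eye, had 2, 6, 2, 3 and 7 counts in the general libraries and 3, 0, 0, 0 and 3 in the HHH libraries. The groups overlapped and no difference was detectable at this depth (exact permutation p = 0.167, two-sided).

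OTX1 and PAX6 passed the filter and did not differ by the test. OTX1 was low throughout, at 0.230 and 0.285 CPM in general and 0.0858 and 0.183 CPM in HHH of batch 1, and at 0.347, 0.474 and 0.450 CPM in general and 0.361, 0.294 and 0.354 CPM in HHH of batch 2. Its log2 fold change was -0.51 (SE 0.25, adjusted p = 0.265, edgeR), and the populations overlapped in batch 2. As with FEZF1, OTX1 was higher in batch 2, by 0.95 on the log2 scale (SE 0.27, adjusted p = 0.00894, edgeR). The sum over libraries was 106 counts in general and 70 in HHH.

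PAX6 was present at 0.700 to 1.16 CPM in general and 0.744 to 1.07 CPM in HHH, so the ranges overlapped in both batches. Its log2 fold change was -0.15 (SE 0.17, adjusted p = 0.665, edgeR). Of the annotated exonic bases of PAX6, 25.4% overlap ELP4, a gene on the opposite strand that encodes an Elongator subunit. ELP4, at 20.6 ± 3.40 CPM in general libraries and 21.5 ± 1.65 CPM in sorted ones (SD, n = 5 each), was above PAX6. Whether reads were assigned by strand is not given in the sources used here, and the part of ELP4 reads in the PAX6 counts was not tested.

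The fall was also examined within each batch. Every HHH library lay below every general library of its own batch, in both batches, for 6 of the 9 genes (OTX2, FEZF1, HESX1, LHX5, SIX3 and RAX), an arrangement found in 5.42% of tested genes. For the same genes except RAX, all 5 HHH libraries lay below all 5 general libraries, as in 2.00% of tested genes. Both shares cover only genes that passed the filter, which SIX3 and RAX did not. Of the 6 factors that passed it, OTX2, FEZF1, HESX1 and LHX5 showed both arrangements. OTX2 had log2 fold changes of -1.28 in batch 1 (SE 0.13, adjusted p = 0.00427) and -1.61 in batch 2 (SE 0.13, adjusted p = 5.77e-06, edgeR). For FEZF1 they were -2.60 (SE 0.20) and -2.16 (SE 0.14), and for HESX1 -1.61 (SE 0.29) and -1.36 (SE 0.17). The log2 fold change of LHX5 was -4.23 (SE 0.55) in batch 1 and -6.44 (SE 0.32) in batch 2. In batch 1 alone 3 members were called lower (0.282% of tested genes), and in batch 2 alone 5 were, SIX3 included (3.93% of tested genes).

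The difference between the batches was itself tested. The interaction of batch and population for LHX5 was -2.21 on the log2 scale (SE 0.85, adjusted p = 0.194, edgeR). Of the 6 genes tested, 0 passed the adjusted threshold for this interaction by edgeR and 1, LHX5, had an unadjusted p below 0.05. Over all tested genes 0.777% passed.

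**Figure D2:**
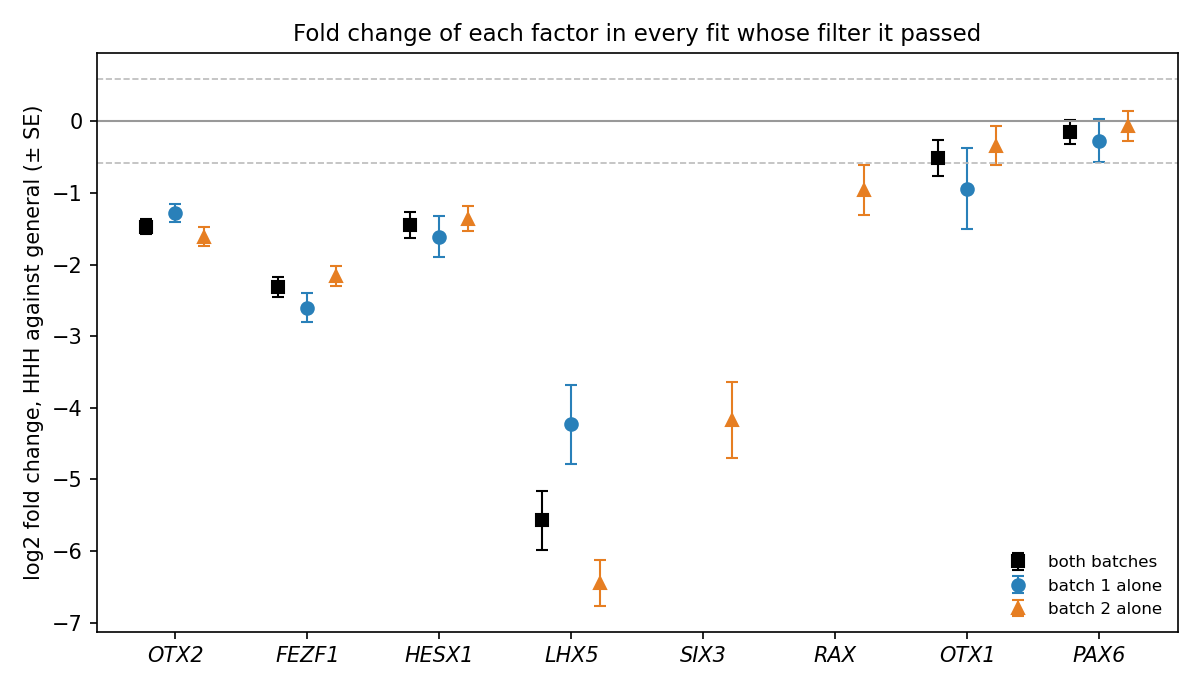
Log2 fold change of HHH against general (vertical axis) with its SE (bars) for each factor, from both batches (black squares), batch 1 alone (blue circles) and batch 2 alone (orange triangles); dashed lines mark 1.5-fold and a missing symbol means that the gene did not pass the filter of that fit. OTX2, FEZF1, HESX1 and LHX5 lie below the lower dashed line in all 3 fits, with LHX5 at -4.23 in batch 1 and -6.44 in batch 2.

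The 4 genes did not fall by the same amount. Ratios of their counts within each library do not depend on scaling, and all 6 pairs were compared by exact permutation within batches, a comparison added after the data had been seen. Between OTX2 and HESX1 the log2 ratio was 3.22 on average in general and 3.21 in HHH, a change of 0.046 (exact permutation p = 0.867, adjusted p = 0.867), with changes of 0.33 in batch 1 and -0.23 in batch 2. The ratio of OTX2 to FEZF1 rose by 0.94, and that of FEZF1 to HESX1 fell by 0.90, both with an exact permutation p of 0.0167, the smallest possible, and an adjusted p of 0.0200 over the 6 pairs. The ratio of FEZF1 to LHX5 rose by 3.06 and that of LHX5 to HESX1 fell by 3.96, and for all 3 pairs with LHX5 the permutation p was again 0.0167. FEZF1 thus fell further than OTX2 and HESX1, and LHX5 further than all 3. By counts, OTX2 made up 55.6% to 62.5% of the counts of the 9 genes in general and 65.2% to 77.1% in HHH, while LHX5 went from 1.96% to 4.94% down to 0.0949% to 0.744%.

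Differences between libraries of the same group were shared by some of these genes. After subtracting the mean of each batch and population, the log2 levels of OTX2 and HESX1 had a correlation of 0.896 over the 10 libraries, and those of FEZF1 and LHX5 one of 0.847. The latter value rests partly on counts near the limit, since LHX5 had 3 and 16 counts in the HHH libraries of batch 1. The level from 16 counts, in HHH batch 1 replicate 3, is flagged below. The other 4 pairs ranged from 0.0759 to 0.416. HHH batch 2 replicate 3, for example, had the highest OTX2, FEZF1 and HESX1 levels among the HHH libraries of batch 2. These values come from the same 10 libraries in 4 groups and are a description.

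Expressed per kilobase of annotated exon, so that genes can be compared, the order in general was OTX2 (32.2 ± 5.23 CPM per kb), FEZF1 (18.6 ± 4.68), HESX1 (8.03 ± 2.36), LHX5 (2.23 ± 1.06), SIX3 (0.190 ± 0.0967), OTX1 (0.0739 ± 0.0216), RAX (0.0601 ± 0.0418), PAX6 (0.0465 ± 0.00818) and LHX2 (0.0269 ± 0.0157), each as mean ± SD of 5 libraries. From OTX2 down to SIX3 no neighbours overlapped in range, whereas from SIX3 down each gene overlapped the next. In HHH the order began with OTX2 (11.5 ± 1.64 CPM per kb), FEZF1 (3.85 ± 1.52) and HESX1 (2.91 ± 0.846), and the ranges of the latter pair overlapped. LHX5 dropped among the scarce genes, at 0.0475 ± 0.0419 CPM per kb, next to OTX1 (0.0528 ± 0.0245) and PAX6 (0.0418 ± 0.00653), and SIX3 moved to the last place (0.00771 ± 0.0114). The long exon annotation of PAX6 (20639 bases) lowers its value on this scale. In the deposited log2 RPKM values PAX6 stood before RAX in general, and the first 6 places were the same genes. In HHH the deposited values kept OTX2, FEZF1 and HESX1 in front and SIX3 last, with PAX6, OTX1, LHX5, LHX2 and RAX in that order between them, where CPM per kb gave OTX1, LHX5, PAX6, RAX and LHX2. The deposited means leave out libraries without a value. In HHH, LHX2 and SIX3 had values in 2 libraries each and RAX in 4, so their places there are uncertain.

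**Figure D3:**
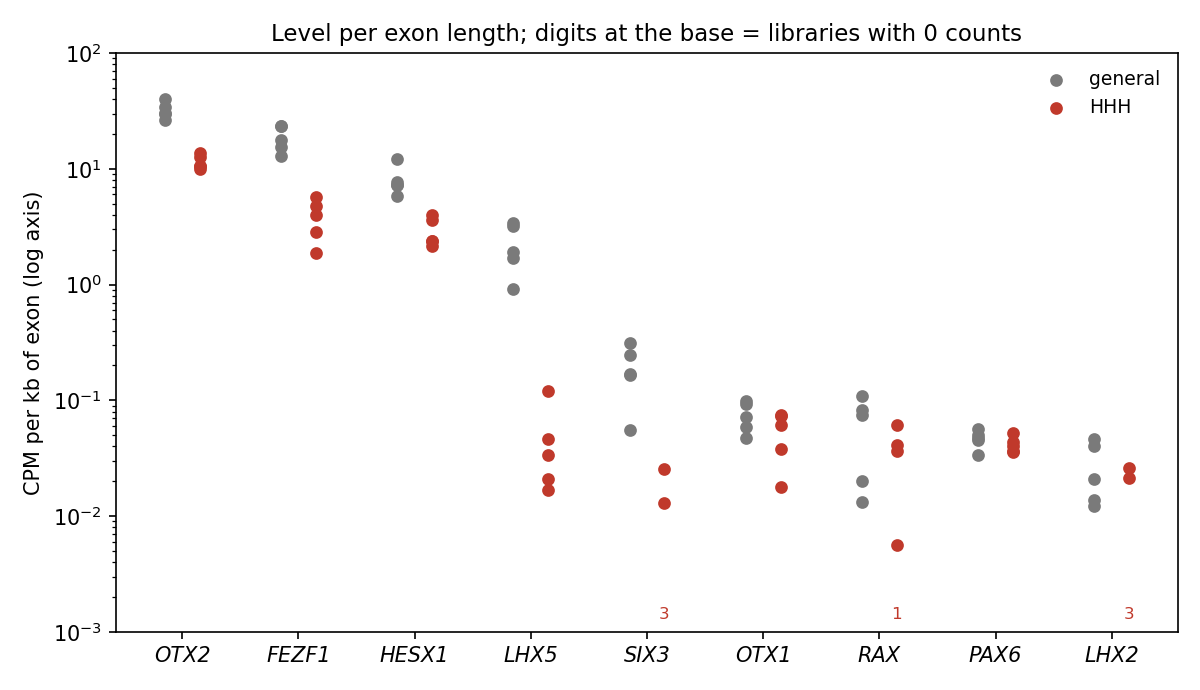
Level of each factor per kilobase of exon (logarithmic vertical axis, CPM per kb) in the 5 general (grey) and 5 HHH (red) libraries, ordered by the general mean; a digit at the base gives the number of libraries with 0 counts. OTX2, FEZF1, HESX1 and LHX5 stand above the other 5 genes in general, and LHX5 falls among those genes in HHH.

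The antisense gene FEZF1-AS1, which overlaps 26.6% of the exonic bases of FEZF1 on the opposite strand, fell with it. In batch 1 FEZF1-AS1 averaged 18.6 CPM in general and 3.50 CPM in HHH libraries, and in batch 2 35.3 ± 6.73 and 9.17 ± 1.52 CPM (SD, n = 3 each). It fell by 2.12 on the log2 scale (SE 0.15, adjusted p = 1.58e-06, edgeR). For every 100 counts of FEZF1 there were 42.1 to 61.5 counts of the antisense gene in general and up to 66.0 in HHH, with the lowest HHH library at 129 counts beside 258 of FEZF1. The counts of the 2 genes cannot be told apart where they overlap, since use of strand in counting is not given. LHX5-AS1 had 108 counts over the general libraries and 7 over HHH, and SIX3-AS1 33 and 2, both lower in HHH within each batch (exact permutation p = 0.0167, two-sided). Their exonic overlap with LHX5 and SIX3 is 29 and 207 bases. OTX2-AS1, with no exonic overlap, had 18 counts in general and 21 in HHH, and its ranges overlapped.

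None of the nearest protein-coding neighbours of the 9 genes was called in either direction. APPL1, which encodes an endosomal adaptor, differed by 0.048 on the log2 scale (SE 0.086, adjusted p = 0.795, edgeR). It lies 119 bases beyond the annotated edge of HESX1, beside the second start of HESX1, which is 27637 bases from the main one. On the other side of HESX1 lies IL17RD (Sef), an inhibitor of FGF signalling, which averaged 76.1 ± 8.72 CPM over the general and 112 ± 16.9 CPM over the HHH libraries (SD, n = 5 each). The difference of 0.56 on the log2 scale (SE 0.096, adjusted p = 0.00284, edgeR) was short of 1.5-fold. The neighbours of OTX2, TMEM260 and EXOC5, had log2 fold changes of -0.040 (SE 0.069) and 0.014 (SE 0.080), and those of LHX5, SDSL and RBM19, had 0.32 (SE 0.22) and -0.00053 (SE 0.091). Beside FEZF1, AASS, a lysine-degrading enzyme, had -0.48 (SE 0.076, adjusted p = 0.00161, edgeR), again below 1.5-fold, and CADPS2 had -0.19 (SE 0.070, adjusted p = 0.130, edgeR). Of the neighbours of SIX3 and PAX6, CAMKMT, IMMP1L and RCN1 had log2 fold changes of -0.11 (SE 0.10), 0.051 (SE 0.11) and 0.070 (SE 0.077), and none of them passed. WDPCP, next to OTX1, had -0.53 (SE 0.073, adjusted p = 4.68e-04, edgeR), while EHBP1 on its other side had -0.018 (SE 0.081) and, beside LHX2, DENND1A had -0.059 (SE 0.090) and NEK6 had 0.18 (SE 0.080). SIX2, GRP and CPLX4 did not pass the filter.

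Of 24 other forebrain and eye field factors, 5 passed the filter, 1 was called lower and 1 higher, with a median log2 fold change of -0.30. CRX, the photoreceptor relative of OTX2, was at 0.347 to 1.47 CPM in general and 0.0229 to 0.106 CPM in HHH and fell by 3.45 on the log2 scale (SE 0.41, adjusted p = 1.42e-04, edgeR). It had 1 to 6 counts in the HHH libraries and passed the filter through the general libraries alone. It is below the 1 CPM of the naming rule and was named after its values had been seen. EMX1, a homeobox gene of the dorsal forebrain, was higher in HHH by 0.63 (SE 0.14, adjusted p = 0.0146, edgeR), at 1.54 to 3.24 CPM in general and 2.23 to 6.94 CPM in HHH. The call for EMX1 was lost with the replicate block (0.47, adjusted p = 0.0529), without general batch 1 replicate 1 (0.58, below 1.5-fold) and without HHH batch 1 replicate 3 (0.49). Without general batch 1 replicate 2 or HHH batch 1 replicate 2, 2 genes of the list were called higher.

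FEZF2, the paralogue of FEZF1, did not pass the filter and was singled out after its values had been seen. It had 145 and 228 counts in the HHH libraries of batch 1 and 0 to 2 counts in each of the other 8 libraries. FEZF1 was lowest in the same 2 libraries, at 258 and 364 counts. FOXA2, a floor plate and endoderm gene, had 78 and 60 counts in these libraries and 7 and 54 in the general libraries of batch 1, against 0 to 12 in batch 2. With 0.0306 and 0.0335 CPM in general and 3.11 and 5.22 CPM in HHH, FEZF2 differed by 6.92 on the log2 scale in batch 1 alone (SE 0.48, adjusted p = 4.86e-04, edgeR). It passed the filter of that fit through the HHH libraries alone, and 0.291% of tested genes were called higher there.

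Factors of more posterior neural tissue gave 8 tested genes of 21, with 2 lower, 1 higher and a median log2 fold change of -0.13. EGR2, a hindbrain segment gene that is also an immediate response gene, fell by 1.12 on the log2 scale (SE 0.17, adjusted p = 9.40e-04, edgeR). GBX2, which opposes OTX2 at the border of midbrain and hindbrain, rose by 1.12 (SE 0.23, adjusted p = 0.00881, edgeR), from a median of 0.934 CPM in general to 2.22 CPM in HHH, with overlapping ranges. LMX1B, a LIM homeodomain gene named after its values had been seen, fell by 2.56 (SE 0.30, adjusted p = 1.50e-04, edgeR), with 2 to 6 counts in the HHH libraries, so that it too passed the filter through general alone. The HOX and EN genes of the list did not pass the filter.

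Genes of the neural plate and of neural progenitors gave 13 tested genes of 16, of which 5 fell, 0 rose and the median log2 fold change was -0.24. LIX1 had 141, 92, 115, 216 and 201 counts in the general libraries and 0, 1, 8, 5 and 5 in HHH, and fell by 5.19 on the log2 scale (SE 0.33, adjusted p = 6.16e-07, edgeR). LIX1 passed the filter through the general libraries alone, and with so few HHH counts the size of its fall is poorly fixed. SOX21, a SOXB2 gene of neural progenitors, was at 1.01 and 1.09 CPM in general and 0.214 and 0.435 CPM in HHH of batch 1, and at 16.0, 19.4 and 19.0 CPM in general and 2.59, 2.97 and 3.50 CPM in HHH of batch 2. SOX21 fell by 2.42 (SE 0.17, adjusted p = 1.31e-06, edgeR), and its general libraries of batch 1 lay below the HHH libraries of batch 2. DLK1, a Notch-like ligand, fell by 2.77 (SE 0.38, adjusted p = 5.10e-04, edgeR). With 7 to 13 counts in the HHH libraries, DLK1 would not have passed the filter on those alone. Its log2 fold change was -1.44 in batch 1, which did not pass (adjusted p = 0.189), and -3.63 in batch 2 (adjusted p = 3.56e-05), and the interaction with batch did not pass (adjusted p = 0.107, edgeR). The other two, SOX1 and MEIS2, were below 1 CPM and were named after their values had been seen. With 5 to 11 and 1 to 11 counts in the HHH libraries, neither would have passed the filter on those alone. Their calls were near the threshold: leaving out any library other than general batch 1 replicate 2 or HHH batch 1 replicate 3 ended the call of SOX1 (adjusted p up to 0.123), and leaving out any other than HHH batch 1 replicate 3, HHH batch 2 replicate 2 or general batch 2 replicate 3 ended that of MEIS2 (up to 0.114). In the fits without the call the log2 fold change stayed at -1.45 to -1.20 for SOX1 and at -1.79 to -1.30 for MEIS2. MEIS2 also lost its call with the replicate block (adjusted p = 0.0595). Leaving out 1 library took the count to 3 to 5.

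NES (nestin) and CDH2, which hESC also express, were not called in that list. The log2 fold change of NES was 0.22 in batch 1 (adjusted p = 0.521) and -0.53 in batch 2 (adjusted p = 0.0194, edgeR). Its interaction of batch with population did not pass (adjusted p = 0.106, edgeR). That of MSI1, named after its values had been seen, passed (adjusted p = 0.0160, edgeR). MSI1 had 0.082 in batch 1 and -0.83 in batch 2. SOX3 was higher in HHH by 0.41 on the log2 scale (SE 0.10, adjusted p = 0.0350, edgeR), short of 1.5-fold. Of the 13 tested genes of that list, 11 had a negative log2 fold change and 2 a positive one. Among neuronal genes 6 of 13 were tested and 1 was called, STMN2, a microtubule regulator that fell by 1.63 on the log2 scale (SE 0.20, adjusted p = 1.92e-04, edgeR). The count of lower neuronal genes was 2 without general batch 1 replicate 1 and without HHH batch 1 replicate 3, and also with the replicate block, which added ELAVL3 (-1.21, adjusted p = 0.00643, edgeR). The median over the neuronal list was -0.24.

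A list of LIM and Groucho co-factors, which also holds LIM-only genes, was measured in full, 16 of 16, with 1 lower, 1 higher and a median log2 fold change of 0.10. The called genes, LMO1 and LMO3, were both LIM-only genes. LDB1, the adaptor that binds LHX proteins, was at 50.6 ± 9.11 CPM in general and 49.5 CPM in HHH, with a log2 fold change of -0.028 that did not pass. LMO3, a LIM-only protein, rose by 0.83 (SE 0.14, adjusted p = 0.00198, edgeR). LMO1, named after its values had been seen, fell by 1.61 from 0.537 ± 0.233 CPM in general. It had 2 to 17 counts in the HHH libraries and would not have passed the filter on those alone. Of the Groucho genes TLE1 to TLE6 none was called, but TLE3 (-0.43, adjusted p = 0.106, edgeR) was called with the replicate block (-0.60, adjusted p = 0.0278) and in batch 2 alone (-0.79, adjusted p = 4.56e-04). In batch 1 its value was 0.092, and the interaction of batch with population passed (adjusted p = 0.0427, edgeR).

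A list of secreted antagonists of WNT, BMP or activin signals, which favour anterior neural fate, was tested in full, 10 of 10. It also holds SHISA2, which is not secreted (log2 fold change -0.43, adjusted p = 0.0472, edgeR, short of 1.5-fold). Of the 10 genes 4 fell, 0 rose and the median log2 fold change was -0.70, beside 2.34% of all tested genes called lower. FST (follistatin, an activin antagonist) was at 12.6 to 18.2 CPM in general and 4.42 to 6.70 CPM in HHH and fell by 1.49 on the log2 scale (SE 0.088, adjusted p = 5.68e-07, edgeR). FRZB, a WNT antagonist, was at 3.87 to 8.94 CPM in general and 1.44 to 1.75 CPM in HHH and fell by 1.97 (SE 0.18, adjusted p = 1.13e-05, edgeR). The other two were GREM1 and CHRD, both BMP antagonists below 1 CPM and named after their values had been seen. GREM1 had 5 to 20 counts in the HHH libraries and would not have passed the filter on those alone. The call of CHRD ended when any library except general batch 1 replicate 1 or HHH batch 1 replicate 3 was left out (adjusted p up to 0.135). SFRP1, the most abundant of the list at 1020 to 1210 CPM in general and 646 to 883 CPM in HHH, had a log2 change of -0.57 (SE 0.078, adjusted p = 4.68e-04, edgeR), short of 1.5-fold. SFRP2 went the other way, from an average of 138 CPM in general to 178 CPM in HHH. Its log2 change of 0.37 (SE 0.076, adjusted p = 0.00953, edgeR) was also short of 1.5-fold. Of the 10 genes, 7 had a negative log2 fold change and 3 a positive one. Without general batch 1 replicate 2 or HHH batch 1 replicate 3, 1 gene of the list was called higher.

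**Figure D4:**
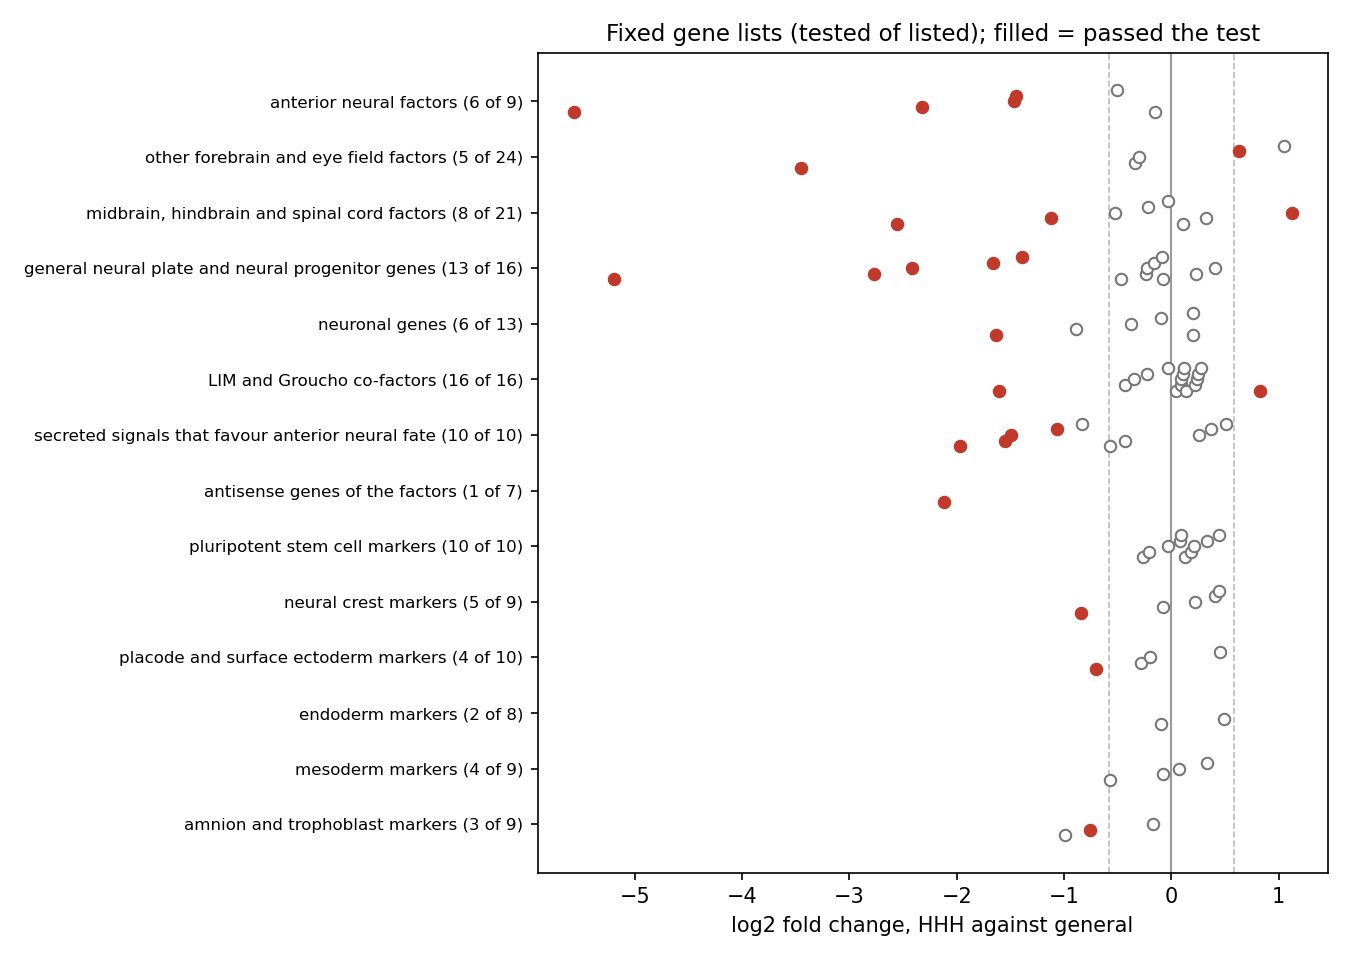
Log2 fold change of HHH against general (horizontal axis, dashed lines at 1.5-fold) for each tested gene of the 9 factors and of 13 gene lists (rows, with the number tested of those listed); filled circles passed the test. The anterior neural factors, the neural progenitor genes and the secreted antagonists hold 4, 5 and 4 genes called lower, and the pluripotency markers hold 0 called.

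Markers of other cell types were measured beside these genes, and their part in the fall of the 4 factors was not tested. Neural crest markers had 1 of 5 tested genes called lower, SOX10 (log2 fold change -0.84), with a summed level of 61.9 to 76.6 CPM in general and 74.1 to 84.6 CPM in HHH. Placode and surface ectoderm markers had 1 of 4, EYA2 (-0.70), with a sum of 4.40 to 5.99 CPM in general and 3.45 to 4.10 CPM in HHH, and KRT5 and KRT14 were at or under 3 counts in every library. The calls of SOX10 and EYA2 each ended when any of 5 libraries of batch 2 was left out (adjusted p up to 0.0689 and 0.0851), for SOX10 all but HHH replicate 3 and for EYA2 all but general replicate 1. Amnion and trophoblast markers had 1 of 3, KRT7 (-0.76), with a sum of 6.37 to 11.5 CPM in general and 4.01 to 6.31 CPM in HHH. A second gene of that list was called without general batch 1 replicate 1 or without HHH batch 1 replicate 3. Endoderm markers had 0 of 2 (sums 1.72 to 3.29 and 1.64 to 4.67 CPM), with SOX17, GATA4 and GATA6 at or under 3 counts throughout, and mesoderm markers had 0 of 4 (sums 109 to 159 and 114 to 154 CPM, mostly KDR at 125 and 132 CPM), though without HHH batch 1 replicate 3 each of these lists had 1 gene called (higher and lower, respectively). With the replicate block TBX6, a mesoderm marker (-0.70, adjusted p = 0.0345, edgeR), and VTCN1, an amnion and trophoblast marker (-1.24, adjusted p = 0.0385, edgeR), were also called. TBXT (brachyury, a defining gene of early mesoderm), named after its values had been seen, did not pass the filter when both batches were fitted. It had 103 counts in general and 28 in HHH, lower in HHH in both batches (exact two-sided permutation p within batches 0.0167). In batch 2 alone the log2 fold change of TBXT was -1.84 (adjusted p = 0.00269, edgeR). TBXT entered that fit through its general libraries only, as its HHH counts, 2 to 9, were under the filter minimum of 10. The sum of the 9 anterior neural factors was 143 to 228 CPM in general and 49.2 to 70.8 CPM in HHH.

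Genes whose profile over the libraries was most like that of each lowered factor were named by the correlation of log2 levels after subtracting batch means, over 10 libraries and 13381 protein-coding genes that reached 1 CPM in either population. For OTX2 they were DHRS3, a retinaldehyde reductase (r = 0.995), PLCL2 (0.992) and RGS5 (0.991). For FEZF1 they were FEZ1 (0.994), FST (0.988) and DPP4 (0.987). HESX1 was most like ZCCHC12 (0.990), STOM (0.988) and PDLIM3 (0.986), and LHX5 most like SFRP1 (0.994), LIMCH1 (0.994) and SYT6 (0.991). The libraries fall into 2 populations that differ in all these genes, and 150 to 383 genes had a correlation above 0.9 with each factor, so the order among them carries little information. Among the 4 factors themselves the values ranged from 0.885 (LHX5 with HESX1) to 0.967 (OTX2 with LHX5). Of the named genes LIMCH1, an actin-binding protein, had the largest fall, 2.33 on the log2 scale (SE 0.14, adjusted p = 5.68e-07, edgeR), from 10.7 to 2.04 CPM.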

How the data were processed

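Bulk RNA libraries (TruSeq) were made by the authors from 5 general and 5 HHH samples of 1 hESC line, and the deposited gene table holds whole-number counts per Ensembl gene. A second deposited table, used only as an alternative, holds log2 RPKM values, recorded as a score; its batch means are equal for each gene (largest difference 9.24e-14 over 27641 genes), so the authors had removed the batch effect. The submitters' processing notes name GRCh37, CASAVA 1.8.2, R 3.2.2 and limma 3.26.9; the aligner, counter and annotation are not given in the sources used here. Of the identifiers, 88.5% matched GENCODE 44 (GRCh38), and those without a match held 7.44% to 20.3% of each library's counts and stayed in the fit. Counts were filtered (filterByExpr, minimum count 10), scaled by TMM and fitted with edgeR 4.0.16 (R 4.3.3, quasi-likelihood) with batch and population as terms, tested first on simulated data. Calls needed both an adjusted p below 0.05 and a change over 1.5-fold. Single low genes were compared by exact permutation within batches on log2(CPM + 0.1). Totals of 47242595 to 78503395 counts put 1 count at 0.0153 to 0.0229 CPM; limits and intervals cover counting error only. Named genes were the 9 factors, at most 5 called genes of each list with at least 1 CPM, the 3 genes most like each factor of at least 1 CPM, and the nearest protein-coding neighbours. The factors, lists and tests were chosen with earlier results of these data known. Alternatives were other scalings, filters, models, thresholds, single batches and leaving out each library. Replicate numbers of the labels were taken to pair libraries, since deviations of same-numbered libraries of batch 2 correlated at 0.113 to 0.239 (edgeR log2 CPM). Differently numbered libraries of batch 2 had -0.126 to -0.00512. On log2(CPM + 0.5) the lowest same-numbered value was 0.0884. In batch 1, with 2 libraries a group, the deviations mirror each other by construction. There the differently numbered general 1 and HHH 3 gave 0.113, as did the same-numbered pair, so batch 1 cannot show pairing. General batch 1 replicate 1 and HHH batch 1 replicate 3 had no partner, so the block draws no population difference from them.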

Additional observations from a re-analysis of the deposited data

Results flagged for a closer look

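The level of LHX5 in HHH batch 1 replicate 3, 0.366 CPM (16 counts), stood apart from the other HHH libraries, the next highest of which was at 0.141 CPM and the lowest at 0.0519 CPM. Its gap to the next library was 0.715 of the range of the 5 libraries, just above Dixon's 95% critical value. It was the only 1 of the 18 groups of levels examined (9 genes, 2 populations) to exceed that value, and chance exceeds it in about 1 in 20 groups. The log2 fold change of LHX5 was -5.57 with this library and -6.35 without it.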

How the results depend on the processing

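The number of anterior neural factors called lower was 4 and ranged from 3 to 5 over 25 alternatives: 3 in batch 1 alone, and 5, with SIX3 added, in batch 2 alone, without the filter and when any of 6 libraries was left out (4 to 5 over the 10 libraries). SIX3 entered those fits with log2 fold changes of -5.41 to -4.04, in the filtered ones through its general libraries alone. No factor was called higher, and the interaction of batch with population passed for 0 factors, in any alternative run. OTX2 ranged from -1.62 to -1.28, FEZF1 from -2.60 to -2.16, LHX5 from -6.44 to -4.23 and HESX1 from -1.61 to -1.24 on the log2 scale, and HESX1 lost its call in batch 1 alone and in no other alternative. Neither OTX1 (-0.94 to -0.34) nor PAX6 (-0.29 to -0.053) was called in any alternative that kept it. With library size only, the permutation p of OTX1 was 0.0167 instead of 0.05. The cause of these shifts was not tested.

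Among all genes 701 were called, against 151 without a batch term, 1114 without a filter, 440 at an adjusted p below 0.01, 265 at over 2-fold, 132 when tested against 1.5-fold, 136 in batch 1 alone and 1178 in batch 2 alone. The split of higher and lower calls was 150 and 551, and 39 and 864 on the deposited log2 values, where the median of all genes was -0.12, against 0.016. It was 99 and 557 with library size only, 18 and 133 without a batch term, 69 and 67 in batch 1 alone, 25 and 240 at over 2-fold, 1 and 131 against 1.5-fold, and 371 and 743 without a filter. The replicate block gave 204 and 615 and changed the call of no factor. Of the listed genes it ended the calls of EMX1 and MEIS2 and added those of ELAVL3, MSI1 (-0.62), SFRP1 (-0.59), TBX6, TLE3 and VTCN1.

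Over all alternatives, the counts called lower ranged from 1 to 6 for neural progenitor genes, 2 to 6 for secreted antagonists, 0 to 2 for other forebrain factors, neuronal genes, LIM and Groucho co-factors, neural crest, mesoderm and amnion markers, 0 to 4 for posterior factors, 0 to 1 for placode markers and 1 to 3 for antisense genes. SIX3, RAX and LHX2 are limited by depth.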
